A study of Homo sapiens with 5 samples.

Results

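H/ACA box snoRNAs are short nucleolar RNAs that guide the conversion of uridine to pseudouridine, mainly in ribosomal RNA. Their genes carry symbols that begin with SNORA, and every row with such a symbol in the deposited values was taken. There were 43 such genes among the 2694 genes listed, and the list holds genes that the authors chose for a difference between the media compared here. All 43 fell in hypertrophic medium under the scaling of the deposited values, although under quantile normalization 1 of them, SNORA69, had a difference of 0.016 with an adjusted p of 0.80 (limma). Over all listed genes 36.5% were called lower.

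The libraries came from TC28a2, an established line of human chondrocytes, so a single line stands for the cell type. The study compared cells in growth medium (2 libraries) with cells in a medium that induces hypertrophic differentiation (3 libraries), with RNA taken on day 5, to learn which transcripts change as chondrocytes become hypertrophic. Total RNA was extracted with Trizol, ribosomal RNA was depleted with a stranded total RNA kit, and the libraries were read on a NovaSeq instrument. Growth medium was high-glucose DMEM with 10% fetal bovine serum. Hypertrophic medium had less serum (1%) and 1% ITS, an insulin supplement. Its growth factors were GDF-5 at 10 ng/ml and BMP-2 at 100 ng/ml, and its hormones were dexamethasone at 10 nM and T3 at 1 µM. β-glycerophosphate at 10 mM and ascorbic acid at 50 µg/ml were also added, and this medium was replaced every 2 days. Both media held 1% antibiotic and antimycotic solution. Serum and all of the added factors changed together, so their parts cannot be told apart. The study describes its replicates in general as biological, but the labels name no separate cultures for these libraries. The p-values measure only the spread between them, which may be in part technical.

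An H/ACA snoRNA folds into a pair of hairpins, with the H box in the hinge between them and an ACA triplet close to its 3′ end. Pockets in the hairpins pair with the target RNA and place a uridine in the active site of dyskerin, which works with NHP2, NOP10 and GAR1. In human cells most of these RNAs are cut from introns of host genes, many of which encode ribosomal proteins or are non-coding RNAs of the SNHG group. A few have other tasks: the U17 RNA, encoded by SNORA73A and SNORA73B, acts in the cleavage of the ribosomal RNA precursor. Hypertrophic chondrocytes of the growth plate enlarge and secrete matrix, work that draws on ribosomes made with such guides.

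The chondrocyte label was checked against its markers first. Of 8 chondrocyte genes, 3 were listed, and SOX9, the transcription factor that specifies the lineage, was the most abundant of them. SOX9 had deposited log2 values of 10.85 and 10.69 in growth medium and 11.59, 11.47 and 11.18 in hypertrophic medium. COL2A1, the main cartilage collagen, stood at 7.57 and 7.83 against 9.50, 9.03 and 9.16. ACAN, the large cartilage proteoglycan, stood at 6.95 and 6.63 against 8.24, 7.65 and 7.89. Transcripts of the lineage were therefore present in both media, and all 3 genes were higher in hypertrophic medium. COL9A1, COL11A1, COL11A2, MATN3 and COMP were not listed, which does not show that they were at 0. The summed value of the 3 listed markers was 11.07 and 10.95 in growth medium and 12.01, 11.80 and 11.61 in hypertrophic medium.

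Of 6 hypertrophic markers, MMP13 and PTH1R were listed, both higher, with MMP13 at 7.05 and 7.08 against 8.15, 7.46 and 7.69. COL10A1, IHH, RUNX2 and ALPL were not listed. Of 11 genes of other cell types, 2 were listed. CDH5, an endothelial cadherin, was at 8.20 and 8.19 in growth medium and at 6.87, 7.15 and 6.99 in hypertrophic medium. The epithelial cadherin CDH1 was near 4 in every library, at 3.96 and 4.12 against 4.57, 4.25 and 4.62. PECAM1, PTPRC, EPCAM, ADIPOQ, PLIN1, MYOD1, DES, BGLAP and SP7 were not listed. The summed value of these 2 genes was 8.28 and 8.27 in growth medium against 7.14, 7.33 and 7.25, and its part in the snoRNA values was not tested.

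The sequences below show the members that the values turn on: the snoRNA with the highest level, the members with a placed gene whose differences were among the lowest, the ends of the range within the gene TAF1D, and the related copies. They were read from GRCh37 at the position of the GENCODE gene that has the same name or an older name, lies on the strand of the host gene within it, and differs by at most 8 bases from the RefSeq length. Exactly 1 such position was found for 30 of the 43 genes. Capitals mark the ACA nearest the 3′ end, within the last 10 bases, and the ANANNA match (N is any base) nearest the middle of the RNA, between 40% and 60% of its length. Only the transcript strand was searched.

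SNORA73B, from SNHG3, lies at chr1:28835071-28835274 (GRCh37, plus strand) and shows both boxes.
SNORA73B: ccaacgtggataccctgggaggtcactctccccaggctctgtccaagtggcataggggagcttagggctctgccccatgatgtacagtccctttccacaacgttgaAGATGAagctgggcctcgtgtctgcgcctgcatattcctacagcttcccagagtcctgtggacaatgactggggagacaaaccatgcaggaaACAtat
SNORA65, from the ribosomal protein gene RPL12, lies at chr9:130210780-130210909 (GRCh37, minus strand).
SNORA65: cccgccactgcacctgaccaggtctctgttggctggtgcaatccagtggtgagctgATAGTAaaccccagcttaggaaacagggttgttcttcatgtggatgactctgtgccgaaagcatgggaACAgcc
SNORA6, from the ribosomal protein gene RPSA, lies at chr3:39449880-39450030 (GRCh37, plus strand).
SNORA6: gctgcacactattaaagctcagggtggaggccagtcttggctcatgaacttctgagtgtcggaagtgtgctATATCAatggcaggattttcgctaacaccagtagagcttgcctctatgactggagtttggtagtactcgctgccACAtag
SNORA12, from CWF19L1, lies at chr10:101996913-101997059 (GRCh37, minus strand).
SNORA12: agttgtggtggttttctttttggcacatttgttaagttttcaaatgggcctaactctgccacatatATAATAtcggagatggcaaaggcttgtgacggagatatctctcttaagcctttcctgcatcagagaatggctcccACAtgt
SNORA40 and SNORA1 both come from TAF1D, at chr11:93468277-93468402 (GRCh37, minus strand) and chr11:93465170-93465299 (GRCh37, minus strand). The annotated end of SNORA40 holds no ACA within its last 10 bases, and SNORA1 has no ANANNA match in the middle window.
SNORA40: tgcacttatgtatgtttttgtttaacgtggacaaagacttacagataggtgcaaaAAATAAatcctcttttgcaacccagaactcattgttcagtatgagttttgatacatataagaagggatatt
SNORA1: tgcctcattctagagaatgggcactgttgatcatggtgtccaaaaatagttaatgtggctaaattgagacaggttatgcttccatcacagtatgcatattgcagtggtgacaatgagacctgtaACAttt
SNORA3A and SNORA3B, from the ribosomal protein gene RPL27A, lie at chr11:8705774-8705903 (GRCh37, plus strand) and chr11:8706986-8707116 (GRCh37, plus strand).
SNORA3A: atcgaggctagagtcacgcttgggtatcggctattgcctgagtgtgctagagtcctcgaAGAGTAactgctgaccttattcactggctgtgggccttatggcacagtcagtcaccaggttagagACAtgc
SNORA3B: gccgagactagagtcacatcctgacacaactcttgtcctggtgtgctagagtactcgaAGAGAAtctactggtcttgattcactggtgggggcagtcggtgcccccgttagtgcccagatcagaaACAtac
SNORA71A, SNORA71C and SNORA71D, from SNHG17, lie at chr20:37055952-37056085 (GRCh37, minus strand), chr20:37058313-37058446 (GRCh37, minus strand) and chr20:37062508-37062641 (GRCh37, minus strand). Their annotated ends stop at the ACA itself, and the annotated length of 134 is shorter than the RefSeq length of 138. The marked match starts at base 58 in SNORA71A and SNORA71D but at base 71 in SNORA71C. The AGAGGA marked in SNORA71A also occurs in SNORA71C, further from its middle, and is left in lower case there. The capitals therefore do not mark the same place in the copies.
SNORA71A: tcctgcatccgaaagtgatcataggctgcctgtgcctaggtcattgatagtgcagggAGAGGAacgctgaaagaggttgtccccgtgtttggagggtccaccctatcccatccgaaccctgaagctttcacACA
SNORA71C: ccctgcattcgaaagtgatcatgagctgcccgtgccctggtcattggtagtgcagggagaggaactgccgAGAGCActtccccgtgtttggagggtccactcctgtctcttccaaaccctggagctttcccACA
SNORA71D: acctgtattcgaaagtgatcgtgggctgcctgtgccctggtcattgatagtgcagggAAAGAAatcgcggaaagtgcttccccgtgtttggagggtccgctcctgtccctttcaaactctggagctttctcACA

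An ACA within the last 10 bases was present in 27 of the 30 placed members (90.0%), and an ANANNA match in the middle window in 29 (96.7%). Both were present in 26 (86.7%). Among all 398 GENCODE snoRNA genes named SNORA, which include many scattered copies, 57.0% held both, and among the 389 named SNORD 1.80% did. Taken singly, the ANANNA match was in 74.9% of the SNORA and 31.6% of the SNORD genes, and the ACA in 73.1% and 6.94%. The match describes the letters and is not evidence of a working box. GC content over the 30 sequences ran from 32.5% to 60.4%, with a median of 48.4%. RefSeq lengths of the 43 RNAs ran from 86 to 205 bases with a median of 133, and their genes lay on 18 chromosomes.

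The 43 genes were 23.6% of the 182 genes that RefSeq names SNORA. In the limma fit over all 2694 genes, all 43 were lower in hypertrophic medium with an adjusted p under 0.05, and none was higher, either by adjusted p or at an unadjusted p under 0.05 (0 of 43). Over all listed genes 36.5% were called lower and 62.5% higher. For each of the 43, all hypertrophic libraries lay below both growth medium libraries, as was so for 36.5% of all listed genes. By the study's description, genes were taken as changed by their fold change and false discovery rate in these very libraries, and the table holds as many genes as that set. The fold change cut that the study prints with its count of changed transcripts, in log2 units, was not met by any SNORA gene. For its clustering the study names a looser cut, in plain fold change with an unadjusted p. The lowest SNORA difference was −1.03, and some listed differences were as small as 0.21 in size, short of either cut. Over the whole list, 2667 of the 2694 did not overlap between media. Small adjusted p-values, libraries that do not overlap and a minimum size of the difference are therefore built in, and the median below is bounded by that choice. The median log2 difference over the 43 genes was −0.64, against 0.56 over all listed genes and −0.69 over the 987 that were lower. In bulk RNA, fewer cells with these RNAs and less of them per cell cannot be told apart.

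The scaling sets the size of the difference. Centring each library on its median lowered the differences of all listed genes by 0.35 and took the SNORA median to −0.99. Genes that were already lower could only move further down, so their direction under centring was fixed in advance. Under that scaling 46.1% of the calls over all listed genes were higher, against 63.1% as deposited. All 43 SNORA genes were called lower. The medians come from a list chosen for differences between media. Centring therefore has no mostly unchanged set to rest on, and −0.99 is not a corrected size.

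**Figure D1:**
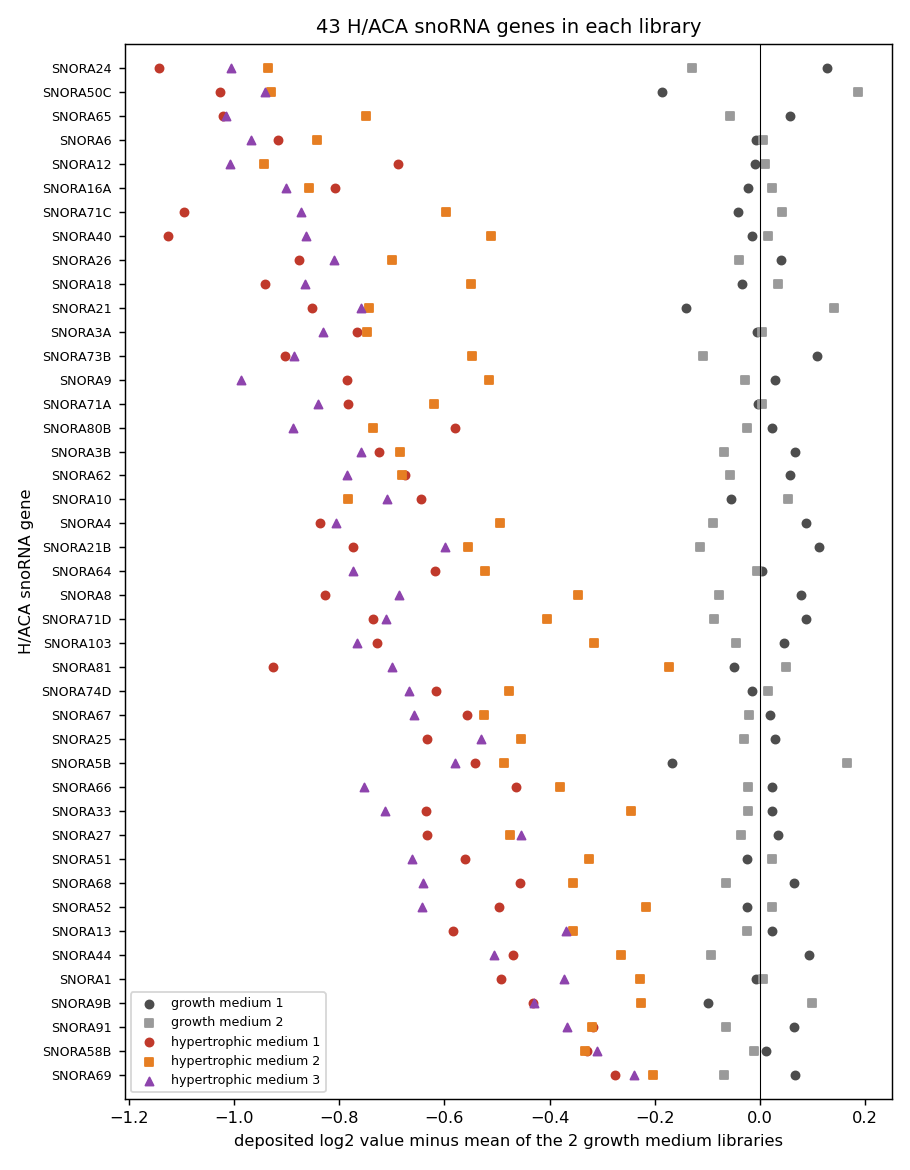
Deposited log2 value of each of the 43 H/ACA snoRNA genes in each of the 5 libraries, as the distance from the mean of the 2 growth medium libraries, with genes ordered by their difference between media. Every hypertrophic medium point lies to the left of both growth medium points, and hypertrophic medium replicate 2 is the closest of the 3 to growth medium in 35 genes.

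The lowest difference over all 5 libraries belonged to SNORA24, a guide RNA encoded in SNHG8. SNORA24 had deposited log2 values of 8.61 and 8.36 in growth medium and 7.34, 7.55 and 7.48 in hypertrophic medium. Its difference was −1.03 (standard error 0.16, adjusted p = 0.000551, lower in 3 of 3 libraries). With the deposited scaling and all 5 libraries it was the only member with a difference beyond −1, while 20 were beyond it with median centring and 13 with quantile normalization. SNORA50C followed, at 8.01 and 8.38 against 7.17, 7.26 and 7.25, a difference of −0.97. Its growth medium libraries stood 0.37 apart, the widest such gap among the 43, and still lay above all 3 hypertrophic libraries. Without growth medium replicate 1 the order turned, with SNORA50C at −1.15 and SNORA24 at −0.90, and without hypertrophic medium replicate 1 SNORA12 was lowest, at −0.98. No RefSeq gene contained SNORA50C. SNHG25, the nearest long non-coding RNA gene in RefSeq, was listed with a difference of −0.75, and is named here after its values were seen.

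The next differences came from snoRNAs in protein-coding hosts. SNORA65 had values of 7.39 and 7.27 in growth medium and 6.31, 6.58 and 6.31 in hypertrophic medium, a difference of −0.93. SNORA6 was at 7.85 and 7.86 against 6.94, 7.02 and 6.89, a difference of −0.91. SNORA12 was at 10.03 and 10.05 against 9.35, 9.10 and 9.03, a difference of −0.88. In each of the 3, both growth medium libraries lay closer to each other than to any hypertrophic library. Their hosts RPL12, RPSA and CWF19L1 were not listed.

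The smallest differences were those of SNORA69, SNORA58B, SNORA91, SNORA9B and SNORA1, all with low values. SNORA69, in the ribosomal protein gene RPL39, was at 3.07 and 2.93 against 2.73, 2.80 and 2.76, a difference of −0.24 and the lowest mean value of the 43. SNORA58B was at 5.03 and 5.00 against 4.69, 4.68 and 4.71. SNORA91 was at 4.28 and 4.15 against 3.90, 3.90 and 3.85. In each of these 3 genes the media did not overlap under the deposited scaling. With median centring their differences were −0.59, −0.67 and −0.68. Without the variance trend SNORA69 had an adjusted p of 0.0765 (limma). SNORA9B was at 4.49 and 4.69 against 4.16, 4.37 and 4.16, and SNORA1 at 5.41 and 5.42 against 4.92, 5.19 and 5.04. Differences of the 4 after SNORA69 ran from −0.32 to −0.36.

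Size and level went together over the list. Across the 43 genes, which share the same 5 libraries, the difference and the mean value had a Pearson r of −0.66 as a description. The 22 genes with the higher mean values had a median difference of −0.76 and the other 21 of −0.52. The deposited scale has the same form over all listed genes: no gene with a mean under 5 had a difference smaller in size than 0.21, while none with a mean of 9 or more had one smaller than 0.54. The transformation behind the values is not given in detail, so a difference of a low gene need not be a log2 fold change of its reads.

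**Figure D2:**
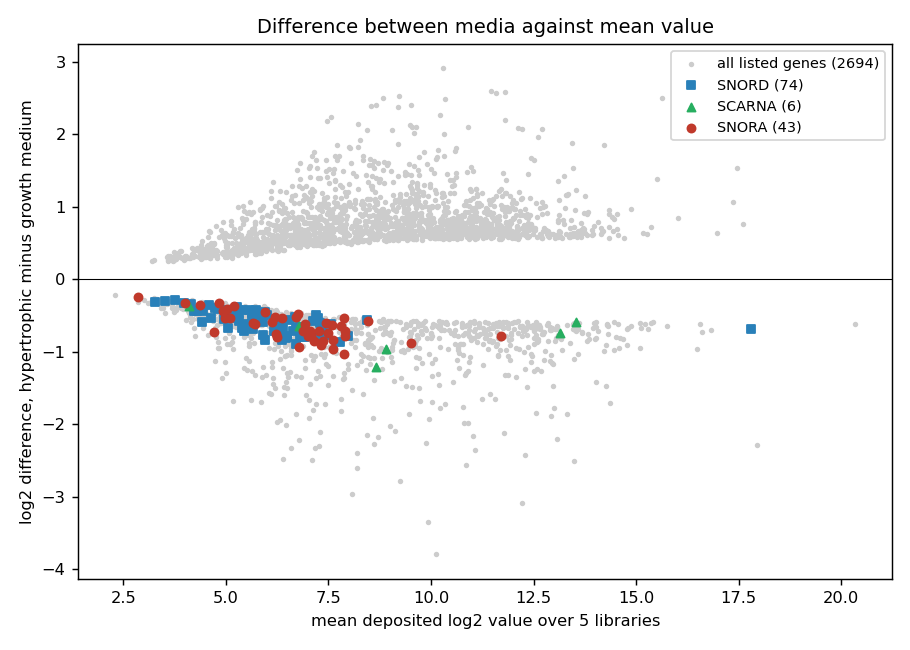
Log2 difference between media against the mean deposited log2 value over 5 libraries for all 2694 listed genes, with the 43 SNORA, 74 SNORD and 6 SCARNA genes marked. All marked genes lie below 0, and the empty band around 0 narrows at low mean values.

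The highest level belonged to SNORA73B, which encodes a U17 RNA. Its values were 12.27 and 12.05 in growth medium and 11.26, 11.61 and 11.27 in hypertrophic medium. The difference was −0.78 (standard error 0.14, adjusted p = 0.00114, lower in 3 of 3 libraries), and SNORA73A was not listed. Divided by RefSeq length, the level of SNORA73B was 13.98 on the log2 scale per kilobase, ahead of SNORA12 at 12.28 and SNORA67 at 11.33. SNORA67, in the translation factor gene EIF4A1, was at 8.83 and 8.79 against 8.25, 8.28 and 8.15. SNORA62, the E2 RNA in the gene RPSA, was at 7.77 and 7.65 against 7.03, 7.03 and 6.92. SNORA62 and SNORA6, which share a host, had differences of −0.71 and −0.91. SNORA63, SNORA74A and SNORA74B were not listed.

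The families SNORA71, SNORA3, SNORA21 and SNORA9 each had at least 2 listed copies. Reads shared between copies may have been split by the authors' counting, so the values of single copies are uncertain. SNORA71A was at 7.94 and 7.95 against 7.16, 7.33 and 7.11. SNORA71C was at 7.62 and 7.71 against 6.57, 7.07 and 6.79. SNORA71D, of the same RefSeq length, had lower values, at 6.16 and 5.98 against 5.34, 5.67 and 5.36. All 3 copies fell, with differences of −0.75, −0.85 and −0.62, and their sequences, shown above, were between 82.4% and 85.8% identical in pairs. Their host SNHG17 was not listed.

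SNORA3A and SNORA3B were less alike, with 70.6% identity over 136 aligned positions. SNORA3A was at 7.46 and 7.47 against 6.70, 6.72 and 6.64, and SNORA3B at 7.55 and 7.42 against 6.76, 6.80 and 6.73. The copies differed by less than the gap between media, with differences of −0.78 and −0.72. SNORA21 was at 8.24 and 8.52 against 7.53, 7.63 and 7.62, and SNORA21B at 8.30 and 8.08 against 7.42, 7.63 and 7.59. Both come from RPL23, and their differences were −0.78 and −0.64. SNORA9, in SNHG15, was at 6.71 and 6.66 against 5.90, 6.17 and 5.70, a difference of −0.76, while SNORA9B lies in DDX55.

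A host gene was found for 42 of the 43 members, in 30 hosts. Of 9 non-coding hosts, 8 were listed, all lower. Of 21 protein-coding hosts only TAF1D and ODC1 were listed, also lower. None of the 11 ribosomal protein hosts, which carry 15 members, was listed. Those 15 members had a median difference of −0.64, equal at this precision to the median over the 43. The 27 members whose host was not listed had a median of −0.62 and the 15 with a listed host −0.73, and the gap between these medians was not tested. A gene can be missing from the list because it did not differ enough or through another filter, so an unlisted host is not shown to be unchanged.

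The listed hosts differed by between −0.60 and −1.10, with a median of −0.69. SNHG8, the host of SNORA24, was at 11.48 and 11.47 in growth medium and 10.62, 10.61 and 10.66 in hypertrophic medium. SNHG3, the host of SNORA73B, was at 12.14 and 12.15 against 11.43, 11.62 and 11.38. GAS5, a non-coding RNA named for its rise in growth arrest and the host of SNORA103, was at 12.98 and 13.01 against 12.28, 12.09 and 12.18. The differences of these hosts were −0.84, −0.67 and −0.81, beside −1.03, −0.78 and −0.60 for their snoRNAs. The host ODC1, which encodes the first enzyme of polyamine synthesis, fell further, from 14.12 and 14.17 to 13.02, 12.92 and 13.17. Its snoRNA, SNORA80B, was at 5.17 and 5.12 against 4.56, 4.41 and 4.25, a difference of −0.73 beside −1.10 for the host.

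DANCR differed by −0.78 beside −0.80 for SNORA26, and SNHG15 by −0.67 beside −0.76 for SNORA9. For EPB41L4A-AS1 the difference was −0.60 beside −0.44 for SNORA13, and for SNHG4 it was −0.68 beside −0.59 for SNORA74D. SNHG12 stood at −0.69, between its members SNORA16A at −0.86 and SNORA44 at −0.41. In 7 of the 15 pairs the snoRNA was lower by more than its host. The hosts had a median mean value of 11.26 and these snoRNAs of 6.25, so the form of the deposited scale bears on this count. Under quantile normalization pairs turned both ways. SNORA26 was then at −0.89 beside −1.15 for DANCR, and SNORA25 at −0.86 beside −0.85 for TAF1D. Across the 15 pairs, which share 10 hosts, Pearson r between the differences was 0.32 as a description.

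**Figure D3:**
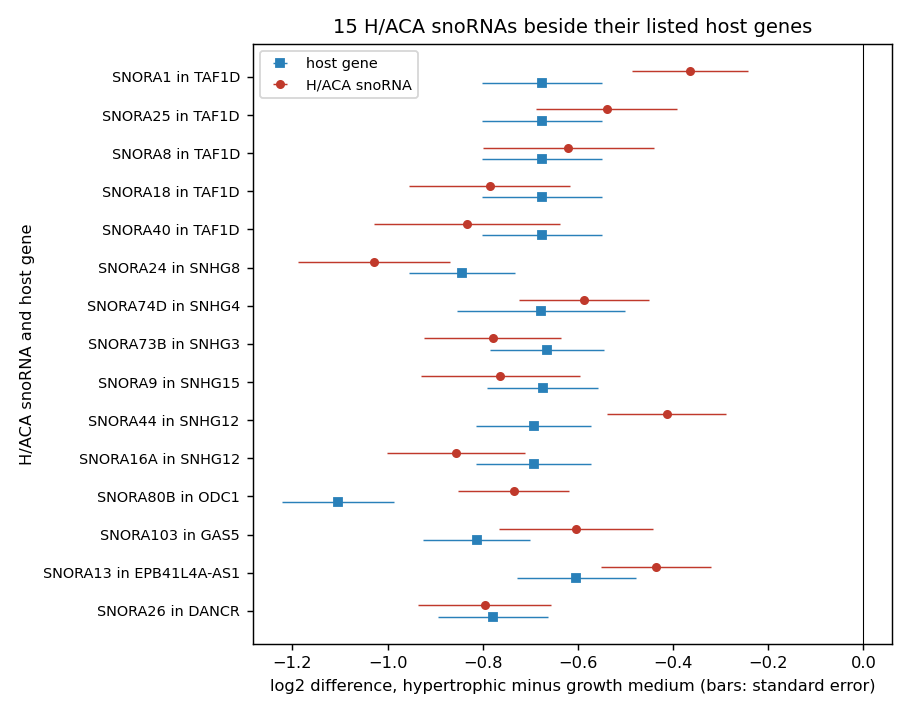
Log2 difference between media, with its standard error from limma, for 15 H/ACA snoRNAs and the listed host gene of each. Every point lies below 0, and snoRNAs of 1 host, such as SNORA16A and SNORA44 in SNHG12, lie on either side of the host's value.

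TAF1D, a subunit of the selectivity factor for RNA polymerase I, held 5 listed members, more than any other host. RefSeq places 6 SNORA genes in it, and SNORA32 was not listed. TAF1D itself was at 12.33 and 12.23 in growth medium and 11.46, 11.76 and 11.59 in hypertrophic medium, a difference of −0.68. SNORA40 was at 8.09 and 8.12 against 6.98, 7.60 and 7.25. SNORA18 was at 7.51 and 7.57 against 6.60, 6.99 and 6.67. The order of the hypertrophic libraries was the same in the host and in all 5 of its listed members. SNORA25 was at 8.24 and 8.18 against 7.58, 7.76 and 7.68, and SNORA8 at 7.37 and 7.22 against 6.47, 6.95 and 6.61. Differences over the 5 ran from −0.83 in SNORA40 to −0.36 in SNORA1, whose values are given above.

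**Figure D4:**
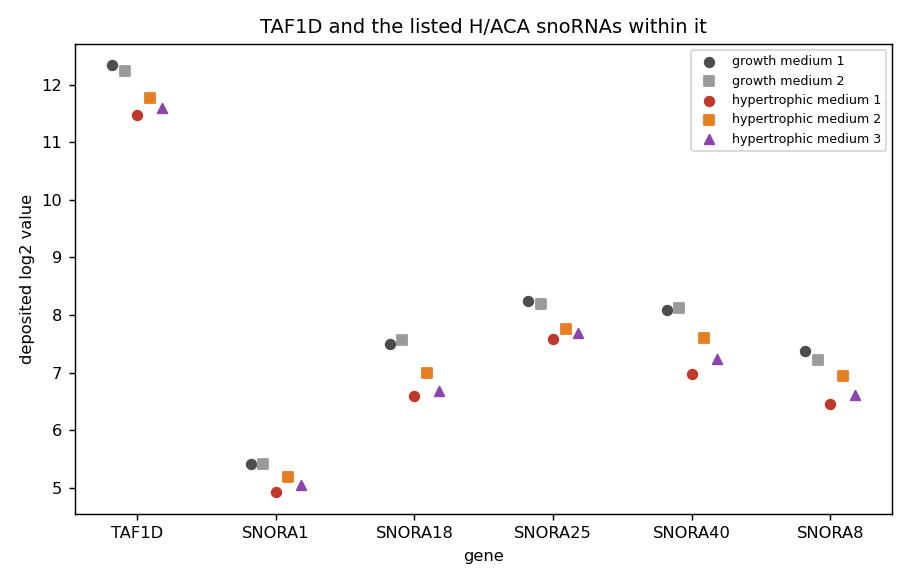
Deposited log2 values of TAF1D and of the 5 listed H/ACA snoRNAs within it, in each of the 5 libraries. In all 6 genes the 3 hypertrophic medium libraries lie below both growth medium libraries, and hypertrophic medium replicate 2 is the highest of the 3.

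Of the 30 placed members, 18 overlapped no exon of their host other than exons of transcripts annotated as retained introns, and 12 overlapped an exon of a transcript of another type. Only 2, SNORA3A and SNORA10, overlapped an exon of a transcript annotated as protein-coding. Reads of the processed snoRNA, of unspliced host RNA and of retained introns cannot be told apart in these values. Short RNAs are also recovered poorly by total RNA kits of this kind, and use of strand in the counting is not given in the sources used here.

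One hypertrophic library stood apart in these genes. Replicate 2 had the highest of the 3 hypertrophic values in 35 of the 43 members (81.4%), against 42.1% of the 987 listed genes that were lower. The same was so for 89.2% of the SNORD genes and for 5 of the 10 listed hosts. Median distances from the growth medium mean were −0.69, −0.51 and −0.75 in hypertrophic replicates 1, 2 and 3. SNORA81, in EIF4A2, was the clearest case, at 7.76 and 7.86 in growth medium and 6.88, 7.63 and 7.11 in hypertrophic medium. It also had the highest adjusted p of the 43 (0.0242, limma). Without replicate 2 all 43 were still called lower, and their median was −0.73. SNORA81 did not pass the threshold without hypertrophic replicate 1 (adjusted p = 0.0544, limma) or without hypertrophic replicate 3 (adjusted p = 0.0709, limma). Leaving out either growth medium library also lost the call. The difference of SNORA81 was −0.65 without growth medium replicate 1 and −0.55 without growth medium replicate 2.

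The other listed small RNAs of the nucleolus and Cajal body moved the same way, in a list of which 36.5% were called lower. All 74 listed C/D box snoRNA genes, which guide methylation of ribose, were lower, with a median of −0.58 and a range from −0.90 to −0.29. They were 20.4% of the 362 genes that RefSeq names SNORD, and the rest have no value here. The 6 listed small Cajal body RNA genes, which guide changes in the spliceosomal RNAs, were also lower, with a median of −0.69. Among genes with a mean value from 5 to 9 the medians were −0.68 for 34 SNORA genes, −0.66 for 59 SNORD genes and −0.75 for 266 lower protein-coding genes. These medians lie close together, and their differences were not tested.

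Most other listed short RNA genes were lower too, but not all. Of 21 microRNA precursor genes, 20 were lower, with a median of −0.35 over the 21. Of 8 listed genes of the RNU, RNVU and RN7 groups, 3 were lower (RN7SKP175, RN7SL767P and RNU6-301P) and the 5 that were higher were U1 genes, with the variant RNVU1-7 among them. RNU1-1, which encodes the U1 spliceosomal RNA, was at 6.81 and 6.77 in growth medium and 7.70, 7.71 and 6.88 in hypertrophic medium. It was the only 1 listed of 25 other structured RNA genes, with a difference of 0.64, and hypertrophic replicate 3 stood close to growth medium. RNU1-2, RNU1-3 and RNU1-4, near-identical copies whose reads may have been split, differed by 0.75, 0.69 and 0.68, and the media overlapped in RNU1-4. RN7SK, RN7SL1, RMRP, RPPH1 and the vault RNA genes were not listed.

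The protein partners were absent from the list. None of the 22 genes for core proteins, assembly factors, nucleolar and Cajal body factors and telomerase was listed, which includes DKC1, NHP2, NOP10 and GAR1. None of the 12 genes for stand-alone pseudouridine synthases, such as PUS1 and TRUB1, was listed either. No values of these genes were analysed here, so the list gives no level or difference for them.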

How the data were processed

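The authors deposited 1 table per library with normalized log2 values for 2694 genes, and these were used as deposited, with no further filter. By the study's methods, reads were aligned with HISAT2 to hg19, counted with StringTie, filtered, log2-transformed and scaled by relative log expression. The submitters' processing notes instead name bcl2fastq 2.20.0.422, cutadapt 1.18, TopHat2 2.0.13, Cuffdiff 2.2.1 and the rat build rn5, and which of the 2 accounts made the values was not resolved. Depth per library is unknown, since no counts were given.

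Growth and hypertrophic medium were set against each other by a limma fit (version 3.58.1, R 4.3.3; lmFit, eBayes with a mean-variance trend, 2 against 3 libraries), with Benjamini-Hochberg adjustment over all 2694 genes and a threshold of 0.05. An exact permutation test of these libraries has 10 splits and cannot give a two-sided p below 0.1. Members and lists were chosen with earlier results of these data known, and no test was run on the list as a whole. Named genes were the 5 members with the lowest and the 5 with the highest difference, the 3 with the highest mean value, the U17, E2, E3 and U19 RNAs, families with 2 or more listed copies, and listed host, protein and synthase genes. Other members are named where their host or a library made them stand out, which was judged after their values were seen.

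Host genes are the smallest RefSeq genes (GRCh38.p14 table, used for names and neighbours only) that contain the member, on its strand where a GENCODE v44lift37 position was found, with named genes taken before LOC symbols. SNORA73B also lies within RCC1 and SNORA74D within MATR3. Sequences came from GRCh37 with pysam 0.24.0, and pairs were aligned with biopython 1.88. Alternatives were the replicate number as a block, leaving out each library, median centring, quantile normalization, no variance trend, a minimum mean value of 6, and stricter thresholds. The threshold on size under each other scaling was added after the data were seen.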

Additional observations from a re-analysis of the deposited data

How the results depend on the processing

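The count of 43 lower genes was 42 with the replicate number as a replicate block, 43 with median centring, 42 with quantile normalization, 42 without the variance trend, 34 at an adjusted p under 0.01, and 30 of 30 where a mean value of at least 6 was required. With a log2 difference of at least 1 required as well, 1 gene was left with the deposited scaling, 20 with median centring and 13 with quantile normalization, the latter pair chosen after seeing the data, so this count depends on the scaling. Leaving out each library in turn gave from 32 to 43 lower genes and medians from −0.73 to −0.59, and the lowest count came without growth medium replicate 1, where the lone growth medium library is assumed to vary like the others. No SNORA gene was called higher under any of these alternatives. Median centring lowers every difference, so it could not have raised one. The median of −0.64 was −0.59 with the replicate block, −0.99 with median centring and −0.87 with quantile normalization. Hypertrophic medium replicate 3 has no growth medium partner, and leaving it out also gave a median of −0.59. In the block fit replicate 3 is alone in its block and is fitted exactly. Each difference with the block therefore equals the one without that library, and these medians are not separate checks. SNORA69 reversed to 0.016 with quantile normalization (adjusted p = 0.80, limma), and its cause was not tested. Over the 43 members and 10 hosts, 494 of 517 values kept their direction and side of the threshold, 22 lost the threshold in 13 members, and 1 reversed. With the replicate block, SNORA52 had an adjusted p of 0.0557 (limma), the same at this precision as without hypertrophic medium replicate 3. Libraries share only a number between media: deviations correlated at 0.061 for replicates 1 and −0.13 for replicates 2, so the pairing was not used. Count models were not run because the values are log2. Depth is unknown and sets no interval here.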
